A study of Mus musculus with 8 samples.

Results

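Genes expressed in a mouse skin carcinoma line were sorted by how they answered 2 transfected microRNAs, miR-193b-3p and miR-365a-3p. A gene was a member of the comparison when its probe was well above background on all 8 arrays, which held for 14564 of the 30139 gene names on the array; 17846 names entered the fit. For each member the miR-193b difference and the miR-365a difference were set side by side and the gene was placed among those moved alike, moved oppositely, moved by 1 microRNA only, or neither. The cells were mSCC-20, a line from a cutaneous squamous cell carcinoma of FVB/N mice, and their Cy3-labelled total RNA was read on single-colour Agilent arrays. A control microRNA (miR_NC, here NC) was transfected in 4 samples, miR-193b in 2 and miR-365a in 2. By the labels' amount in µg, NC 1 and 2 and both miR-193b samples formed a 0.2 set, and NC 3 and 4 and both miR-365a samples a 0.6 set. All 8 samples carried a transfected microRNA and none was untransfected. The labels give no time after transfection and no further allele or agent, and nothing in them shows that replicates came from separate cultures, so the p values reflect the spread between these samples alone, which may be technical.

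Each microRNA was therefore set against the 2 NC arrays that shared its amount. Set and microRNA were confounded: miR-193b was measured in the 0.2 set alone and miR-365a in the 0.6 set alone, so a difference between the effects of the microRNAs cannot be told apart from a difference between the sets. The whole 0.6 set lay on 1 slide, while NC 1 and miR-193b 1 shared slide 1, NC 2 lay on slide 2 and miR-193b 2 on slide 3.

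MicroRNAs are short RNAs that guide Argonaute proteins to partly complementary sites, mostly in 3′ untranslated regions, and lower the stability or translation of the transcript. The seed, bases 2 to 8 counted from the 5′ end, contributes most of the pairing, so microRNAs with unlike seeds have largely unlike direct targets. Transcripts further along a pathway can still move together after both. The mature sequences of the transfected microRNAs' mouse genes in RefSeq (GRCm38.p6) are shown with the seed in capitals, because the seeds decide which transcripts each can pair with.
mmu-miR-193b-3p: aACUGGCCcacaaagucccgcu
mmu-miR-365-3p: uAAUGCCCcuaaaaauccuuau
The seeds differ. Mir193b lies at chr16:13449570-13449591 on the plus strand, and a copy of mature miR-365-3p starts 4325 bases further on, at chr16:13453895-13453916. A further copy with the same mature sequence lies at chr11:79726467-79726488.

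On each array 43020 gene spots were read, and 51.4% to 62.1% of them were well above background, with more in the 0.6 set. No spot was saturated and the RNA integrity number was 10 in every sample. All 8 keratinocyte markers listed, Krt5, Krt14 and Trp63 among them, were well above background on all 8 arrays. Markers of other cell types were mixed. Well above background on 0 arrays were Col3a1, Dcn and Lum (fibroblast), Laptm5 and Tyrobp (leukocyte), Cdh5, Emcn and Tek (endothelial), Dct and Tyrp1 (melanocyte). Pdgfra (fibroblast), Cd3e and Itgam (leukocyte), Esam and Kdr (endothelial) and Mitf and Mlana (melanocyte) passed on all 8 arrays. The remaining markers passed on some arrays, from 1 for Adgre1 to 7 for Pecam1. On all 8 arrays it was 1 of 7 fibroblast, 2 of 8 leukocyte, 2 of 7 endothelial and 2 of 7 melanocyte markers that passed. Levels summed over a list, relative to each array's 75th percentile, were 456 to 474 for the keratinocyte list on the NC arrays of the 0.2 set, 574 to 627 after miR-193b, 560 to 607 on the NC arrays of the 0.6 set and 535 to 660 after miR-365a. In the same order they were 1.5 to 1.74, 1.98 to 2.24, 1.71 to 1.96 and 1.31 to 1.36 for the melanocyte list, which was higher after miR-193b and lower after miR-365a. The leukocyte list (2.69 to 3.45 in the 0.2 set, 4.49 to 6.03 in the other) and the endothelial list (1.21 to 1.66 and 3.47 to 4.90) differed between the sets while NC and microRNA arrays overlapped within each, and the fibroblast list was between 0.0967 and 0.297 throughout. The part of these lists in the results was not tested. Levels below are log2 of the processed signal minus the array's 75th percentile, so 0 is the signal that 75% of gene spots do not exceed. Differences are log2 differences for 2 arrays against 2, with the standard error of the limma fit. A gene was called at a Benjamini-Hochberg adjusted p under 0.05. The spread was estimated from all 8 arrays together, so a member has the same standard error in both comparisons. The miR-193b calls therefore rest in part on the spread within the 0.6 set. With each set fitted alone 0 members were called after miR-193b and 1962 after miR-365a, and 0 moved alike or oppositely.

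After miR-193b 398 members were called (2.73% of members, beside 2.9% of all genes tested), 237 up (1.63%) and 161 down (1.11%). After miR-365a 2564 were called (17.6%, beside 15.9% of all genes tested), 1224 up (8.4%) and 1340 down (9.2%). Both were called in 184 members, which is 46.2% of the miR-193b calls and 7.18% of the miR-365a calls. Of the 184, 155 moved alike, 103 up and 52 down, and 29 moved oppositely, 17 of them up after miR-193b (12 of 25 with arrays centred on their median). The difference between the effects was called in 546 members (3.75%, beside 3.54% of all genes tested). It was called together with 1 microRNA alone in 80 members for miR-193b, 34 up and 46 down, and in 417 for miR-365a, 83 up and 334 down. For a further 134 members called after miR-193b alone and 1963 called after miR-365a alone the difference was not called, so these are not described as moved by 1 microRNA. Neither effect was called in 11786 members.

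**Figure D1:**
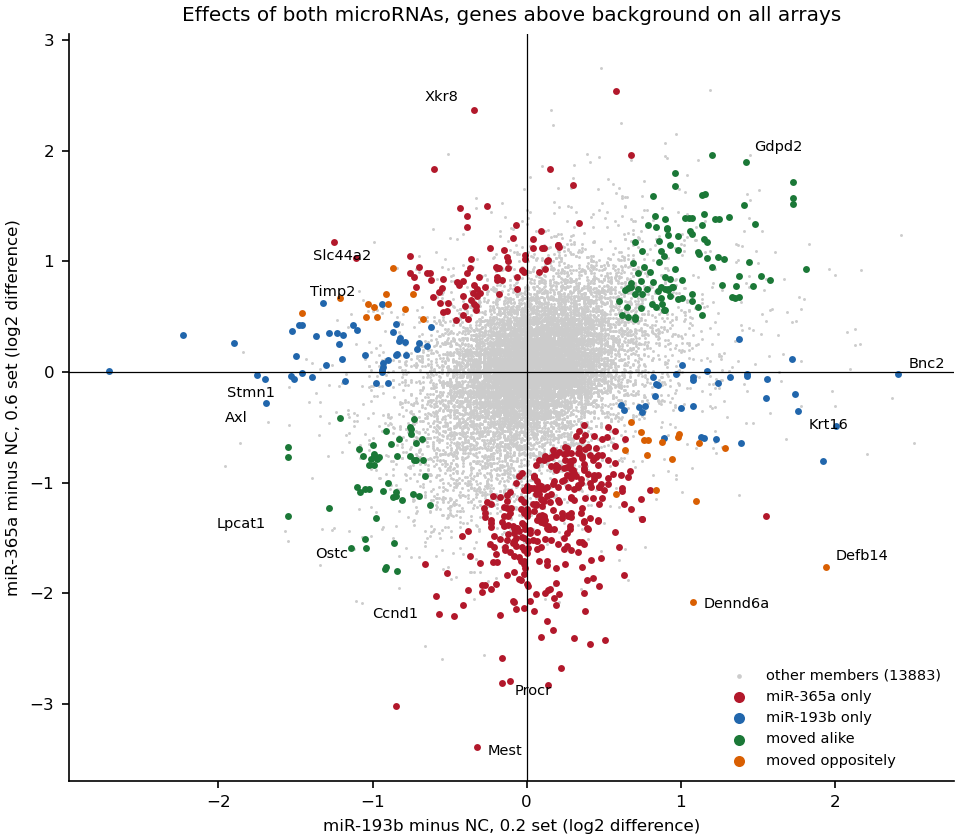
Log2 difference after miR-193b (horizontal) and after miR-365a (vertical), each against the 2 NC arrays of the same amount, for the members well above background on all 8 arrays; 1 point is 1 gene and colours give the class. Genes moved alike lie in the upper right and lower left, genes moved oppositely in the other corners, and the 334 genes lower after miR-365a only form the largest coloured group.

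Across members the effects correlated weakly, with Pearson r 0.314 and Spearman rho 0.311 across genes, which are not independent replicates, and 60.3% of members had the same sign. Among the 237 that rose after miR-193b, 178 (75.1%) were above 0 after miR-365a, with a median of 0.48 there. Of the 161 that fell after miR-193b, 97 (60.2%) were below 0 after miR-365a, with a median of -0.13. Read the other way, 79.4% of the 1224 that rose after miR-365a were above 0 after miR-193b, and 63.7% of the 1340 that fell were below 0. Of all members 56.8% were above 0 after miR-193b and 52.7% after miR-365a, so signs above 0 were the more common ones before any call was made.

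The class sizes depended on every array. Genes moved alike numbered 155 with all arrays, 21, 44, 27 and 36 without NC 1, 2, 3 or 4, 11 without either miR-193b array and 0 without either miR-365a array. Without miR-365a 1 or 2, 952 and 915 members had the same direction at an unadjusted p under 0.05 in both, by limma. Genes moved oppositely numbered 29, and 4, 13, 3 and 2 without NC 1 to 4, 0 and 3 without miR-193b 1 or 2, and 0 without either miR-365a array. The median size of the miR-193b difference was 0.88 on slide 1 alone and 1.0 across slides 2 and 3 for the genes moved alike, 0.94 and 0.89 for those moved oppositely, and 1.13 and 1.17 for the miR-193b only class. The genes were called from the mean of these contrasts, so the values are a description and no separate support. With slide as a fixed block, where the miR-193b effect rests on the arrays of slide 1, 7 members moved alike and 5 oppositely, of which 1 and 0 were among the 155 and the 29. The miR-365a only class held 163, 315, 10 and 0 members without NC 1 to 4, 43 and 114 without miR-193b 1 or 2, and 1 and 3 without miR-365a 1 or 2. The miR-193b only class held 27, 65, 0 and 0 without NC 1 to 4, 9 and 23 without miR-193b 1 or 2, and 0 without either miR-365a array.

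**Figure D2:**
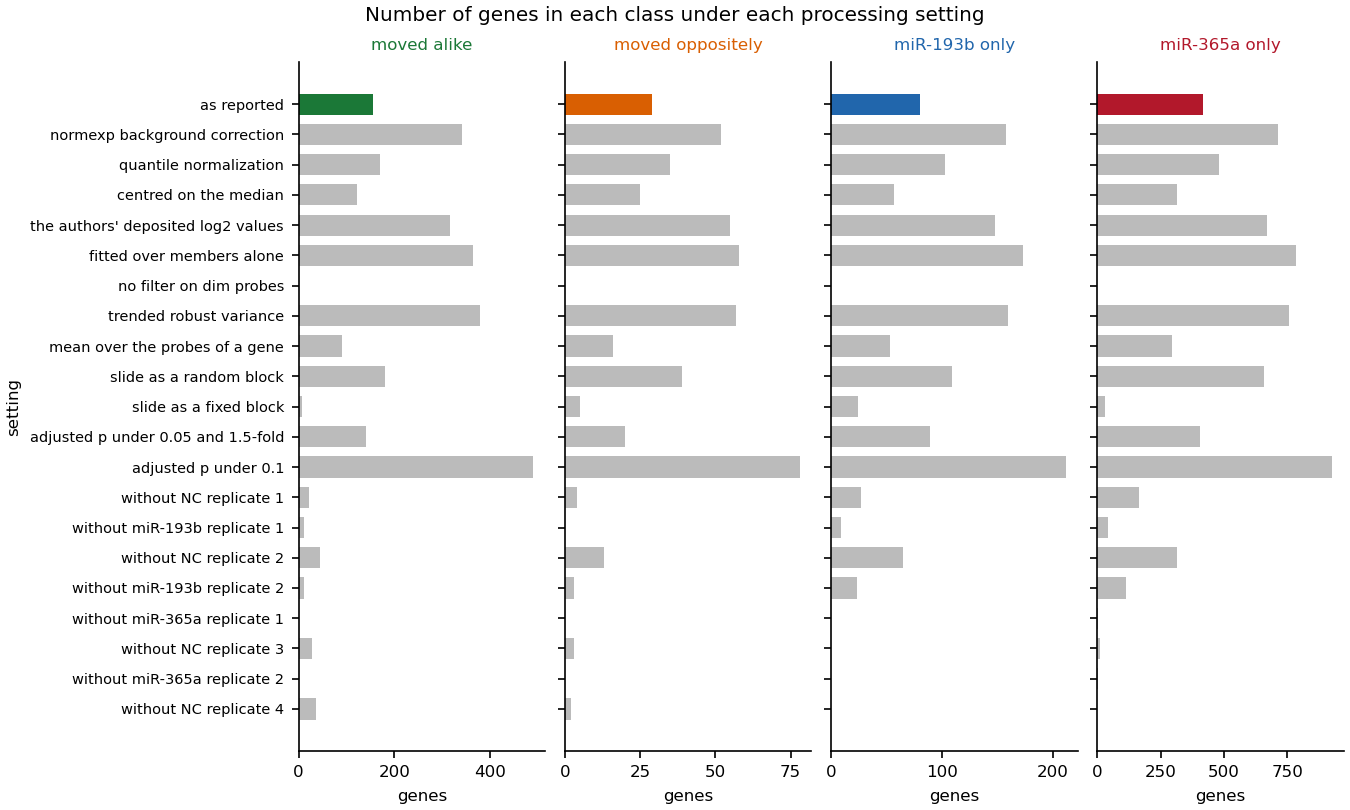
Number of members in each class (horizontal bars, genes) as reported and under the other settings that give all classes, among them leaving out each array in turn. The coloured bars are the counts in the text, 155 alike, 29 opposite, 80 after miR-193b only and 417 after miR-365a only, and the class sizes fall to between 0 and 44 genes for the alike class when an array is left out.

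NC levels themselves differed between the sets in 1842 members at an adjusted p under 0.05 (12.6%). The share was 25.8% of the genes moved alike, 31.0% of those moved oppositely, 22.5% of the miR-193b only genes and 14.6% of the miR-365a only genes; the set difference and the effects use the same NC arrays. Some genes named here stood far apart in the NC arrays, such as the beta-defensin gene Defb14, with levels of -4.63 and -4.96 on the NC arrays of the 0.2 set and 1.09 and 2.05 on those of the 0.6 set. In NC arrays the microfibril gene Mfap5 ran the other way, with 0.25 and 0.75 on the NC arrays of the 0.2 set and -3.16 and -3.24 on those of the 0.6 set.

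Genes that rose after both microRNAs included Mxd4, Mxd1 and Tob1, known as antiproliferative, and the keratinocyte differentiation genes Ivl and Zfp750. Their lists had medians after miR-193b and miR-365a of -0.01 and 0.39 (MAX network), 0.18 and 0.38 (quiescence) and 0.46 and 0.01 (epidermal differentiation). Below 0 were 5 and 4 of 10 MAX network genes and 5 and 8 of 21 quiescence genes, in the same order. Of the 20 differentiation genes 6 and 9 were below 0. Of the 155 genes moved alike, 36 changed at least 2-fold in both, 27 up and 9 down. Fyco1, which links late endosomes and autophagosomes to kinesin, was at -3.22 and -3.39 on the NC arrays of the 0.2 set, -1.69 and -1.46 after miR-193b, -3.26 and -3.06 on the NC arrays of the 0.6 set and -1.71 and -1.47 after miR-365a. Both microRNA pairs of arrays lay above all 4 NC arrays. It rose 3.32-fold after miR-193b (1.73 ± 0.16, adjusted p = 0.0182) and 2.97-fold after miR-365a (1.57 ± 0.16, adjusted p = 0.00439), and the effects differed by -0.16 (adjusted p = 0.727). Its probe lies at chr9:123699114-123699055 on mm9. Gdpd2, a glycerophosphodiester phosphodiesterase gene, rose 2.68-fold and 3.74-fold, from -1.97 and -1.84 on the NC arrays of the 0.2 set and -1.23 and -1.39 on those of the 0.6 set. The fibronectin type III domain gene Fndc7 rose 3.31-fold and 3.29-fold, and Tmem53, Ropn1l and Ankrd42 rose between 2.48-fold and 2.85-fold in each comparison.

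Mxd4 and Mxd1 encode partners of MAX that occupy the same DNA sites as MYC with MAX and repress transcription there. Mxd4 stood at 0.10 and -0.09 on the NC arrays of the 0.2 set, 1.09 and 1.37 after miR-193b, 0.32 and 0.84 on the NC arrays of the 0.6 set and 2.08 and 1.84 after miR-365a. Each microRNA pair was above its own NC pair without overlap; separation of the pairs in either direction was seen in 54.9% and 64.3% of members in the miR-193b and miR-365a comparisons (52.5% and 61.6% of all genes tested). The log2 differences were 1.22 ± 0.21 after miR-193b (adjusted p = 0.0428) and 1.38 ± 0.21 after miR-365a (adjusted p = 0.0113). A further Mxd4 probe gave 1.53 and 1.23. Mxd1 rose by 0.93 ± 0.16 and 0.84 ± 0.16; its further probe gave 1.01 after miR-193b and 0.32 after miR-365a. Tob1, an antiproliferative gene of the BTG and TOB family, rose by 0.74 ± 0.13 and 0.58 ± 0.13. Bbc3, encoding the BH3-only death protein PUMA, rose by 1.16 ± 0.21 and 1.61 ± 0.21. Mxd4, Mxd1, Tob1 and Bbc3 were the alike members of the MAX network, quiescence and p53 target lists, of 10, 21 and 28 members.

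Of the differentiation genes Ivl, which encodes the cornified envelope protein involucrin, was at 1.5 and 0.94 on the NC arrays of the 0.2 set, 2.36 and 2.36 after miR-193b, 0.69 and 0.87 on the NC arrays of the 0.6 set and 2.13 and 2.08 after miR-365a. It was higher on both arrays of each microRNA than on the NC arrays of the same set, and rose 2.21-fold and 2.52-fold. Its further probe gave 1.23 and 1.31. Zfp750, a transcription factor of terminal epidermal differentiation, rose by 1.38 ± 0.14 and 0.68 ± 0.14. NC levels of Zfp750 differed between the sets by 1.26 (adjusted p = 0.00619). Sprr2i, a small proline-rich cornified envelope gene, rose by 1.73 ± 0.31 and 1.52 ± 0.31 from NC levels of -3.69 and -4.25 on the NC arrays of the 0.2 set and -0.69 and -0.41 on those of the 0.6 set. Sprr2 genes are near-identical copies, so which of them hybridised is uncertain. F11r, encoding the junctional adhesion molecule JAM-A, rose by 0.90 ± 0.12 and 0.86 ± 0.12. Sel1l, the adaptor of an endoplasmic reticulum ubiquitin ligase, and Neu1, the lysosomal sialidase gene, rose as well, by 1.15 ± 0.12 and 1.2 ± 0.12 for Sel1l and by 0.80 ± 0.13 and 0.90 ± 0.13 for Neu1.

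Genes that fell after both microRNAs included cell division genes. Ccna2, encoding cyclin A2 of S phase and mitosis, stood at 3.36 and 3.18 on the NC arrays of the 0.2 set, 2.31 and 2.20 after miR-193b, 3.18 and 2.84 on the NC arrays of the 0.6 set and 2.11 and 1.79 after miR-365a. The groups did not overlap in either set. It fell 2.02-fold after miR-193b (-1.02 ± 0.18, adjusted p = 0.0427) and 2.09-fold after miR-365a (-1.06 ± 0.18, adjusted p = 0.0142), and the effects differed by -0.04 (adjusted p = 0.943). Fbxo5, which encodes the anaphase-promoting complex inhibitor EMI1, was at 1.71 and 1.78 on the NC arrays of the 0.2 set, 0.68 and 0.62 after miR-193b, 1.73 and 1.26 on the NC arrays of the 0.6 set and 0.42 and 0.48 after miR-365a, and fell 2.14-fold and 2.06-fold. The cytokinesis kinesin gene Kif23 fell (-0.93 ± 0.14 and -1.08 ± 0.14), and the spindle checkpoint kinase gene Bub1b as well (-0.74 ± 0.12 and -1.10 ± 0.12). Prc1, a spindle midzone gene named after its values were seen, fell (-0.76 ± 0.12 and -0.76 ± 0.12). From the replication list the helicase loading gene Cdc45 fell (-1.09 ± 0.17 and -0.70 ± 0.17), and E2f8, a repressor of the E2F family, did too (-0.86 ± 0.16 and -1.55 ± 0.16). In bulk RNA fewer dividing cells and less RNA per dividing cell cannot be told apart.

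Of 48 measured mitosis genes 5 moved alike, all down, and 47 were below 0 in both comparisons, beside 1.06% of all members moved alike and 25.4% below 0 in both. By microRNA, 6 fell and 0 rose after miR-193b, and 39 fell and 0 rose after miR-365a. The median was -0.55 after miR-193b and -0.97 after miR-365a, beside 0.06 and 0.02 over all members. Of 50 replication genes 2 moved alike, 46 were below 0 in both, 4 fell after miR-193b and 14 after miR-365a, with medians of -0.50 and -0.61. The 29 measured histone genes had medians of -0.47 and -1.14, with 25 below 0 in both; 9 fell after miR-365a, and after miR-193b 0 fell and 1 rose, with 2 at an unadjusted p under 0.05 by limma. Histone genes are near-identical copies, so single members are uncertain. No mitosis, replication or histone member moved oppositely or by 1 microRNA only. Of all members 0.199% moved oppositely, 0.549% by miR-193b only and 2.86% by miR-365a only, so few were to be found at these shares.

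Promoters of mitotic genes often carry a CHR element, TTTGAA, and CCAAT boxes. RefSeq windows of 250 bases before to 50 after the start (GRCm38.p6) were found for 6 of the 7 mitosis or replication genes moved alike. Both strands were searched for TTTGAA and CCAAT, which do not overlap each other. An E2F motif was searched as well. All 6, Bub1b, Prc1, Kif23, Fbxo5, Cdc45 and E2f8, held both, against 20.2% (TTTGAA) and 41.1% (CCAAT) of the 27025 genes in the table and 17.9% and 37.4% of single windows. Of 42 mitosis genes with a window 69.0% held TTTGAA and 71.4% CCAAT. Among 40 replication genes 8 and 25 held them. The E2F motif was in 0 of the 6, 3 of the 42 and 17 of the 40, beside 2.6% of the genes in the table. For the 52 genes that fell alike as a class only 37 had a window, under 80%, so that check is void. As a description alone, 9 of the 37 held TTTGAA (24.3%) and 21 CCAAT (56.8%). Windows were also incomplete for members, found for 9564 of 14564. Of these members 14.5% held TTTGAA, 43.2% CCAAT and 4.74% the E2F motif. The windows of Kif23 and Fbxo5 are shown as examples of both motifs lying near the start, with matches on either strand in capitals; they lie at chr9:61946750-61947049 and chr10:5805416-5805715, both on the minus strand.
Kif23: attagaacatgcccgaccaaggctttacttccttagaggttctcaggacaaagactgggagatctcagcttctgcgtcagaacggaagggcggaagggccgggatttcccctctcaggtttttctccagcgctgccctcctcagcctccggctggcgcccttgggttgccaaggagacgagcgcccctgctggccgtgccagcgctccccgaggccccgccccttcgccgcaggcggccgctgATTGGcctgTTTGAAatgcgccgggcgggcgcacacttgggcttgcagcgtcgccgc
Fbxo5: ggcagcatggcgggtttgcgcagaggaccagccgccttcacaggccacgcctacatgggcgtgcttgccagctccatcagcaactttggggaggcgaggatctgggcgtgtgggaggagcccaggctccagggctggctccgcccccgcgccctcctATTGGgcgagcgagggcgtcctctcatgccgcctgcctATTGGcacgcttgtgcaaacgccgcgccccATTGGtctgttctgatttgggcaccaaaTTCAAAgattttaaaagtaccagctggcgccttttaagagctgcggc
A match is a description of letters and not evidence of a bound factor.

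Genes outside the cell division lists fell after both as well. Lpcat1, a lysophosphatidylcholine acyltransferase gene, was at -0.97 and -1.34 on the NC arrays of the 0.2 set, -2.77 and -2.63 after miR-193b, -1.15 and -1.36 on the NC arrays of the 0.6 set and -2.64 and -2.46 after miR-365a. Every microRNA array lay more than 1 log2 unit below every NC array. It fell 2.92-fold (-1.55 ± 0.17, adjusted p = 0.0201) and 2.46-fold (-1.30 ± 0.17, adjusted p = 0.00778), and a further probe gave -0.97 and -0.83. Ostc, a subunit gene of the oligosaccharyltransferase, fell 2.07-fold and 2.85-fold, from 3.47 and 3.52 on the NC arrays of the 0.2 set and 3.28 and 3.41 on those of the 0.6 set. Cnot6, a deadenylase subunit of the CCR4-NOT complex that shortens the tails of microRNA targets, stood at 4.28 and 4.64 on the NC arrays of the 0.2 set, 3.43 and 3.39 after miR-193b, 4.44 and 4.17 on the NC arrays of the 0.6 set and 3.34 and 3.15 after miR-365a. It fell (-1.05 ± 0.17 and -1.06 ± 0.17), and 2 further probes gave -1.2 and -1.44 after miR-193b and -1.11 and -1.27 after miR-365a. Gprc5b, an orphan receptor gene, and Camk2n2, an inhibitor of calcium/calmodulin kinase II, fell between 2.12-fold and 2.43-fold in both comparisons. Etv5, a PEA3 factor induced by MAPK signalling, fell (-0.96 ± 0.13 and -0.77 ± 0.13), and so did the cytokine gene Il24 (-0.98 ± 0.18 and -1.32 ± 0.18). Probes not used for the class were available for 35 genes moved alike: 37 of 38 such probes had the class's direction in both comparisons.

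**Figure D3:**
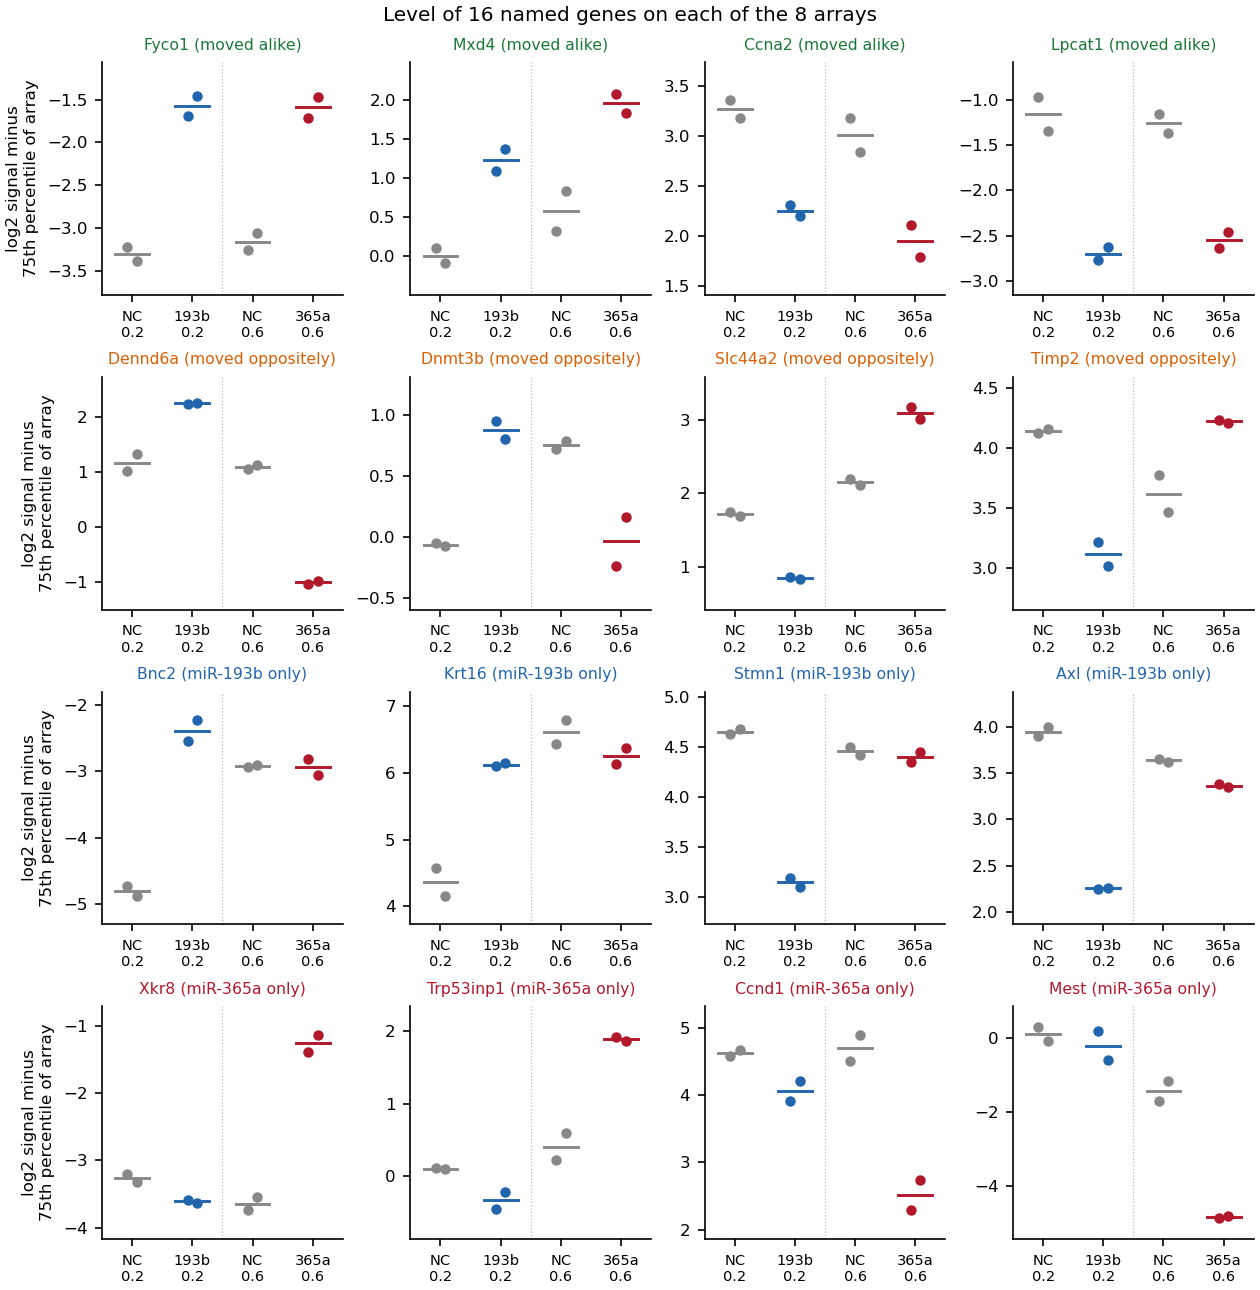
Level of 16 named genes on each array (vertical axis, log2 signal minus the 75th percentile of the array; points, arrays; bars, means of 2), by set and transfection, with 4 genes of each class per row. Fyco1 and Mxd4 rise and Ccna2 and Lpcat1 fall in both sets, while NC levels of Dnmt3b, Krt16 and Bnc2 differ between the sets.

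Genes moved oppositely came from unlike functions, with a DNA methyltransferase, a metallothionein, protease inhibitors and membrane traffic genes among them; of all the lists, 2 members were in this class, Dnmt3b and Timp2. The difference between the effects was called for all 29, which 2 called effects of opposite sign nearly ensure, so it is no separate support. Both effects reached 2-fold in 3. Dennd6a, an exchange factor gene for RAB14 in endosomal recycling, was at 1.01 and 1.32 on the NC arrays of the 0.2 set, 2.23 and 2.26 after miR-193b, 1.05 and 1.12 on the NC arrays of the 0.6 set and -1.03 and -0.97 after miR-365a. The NC pairs were level, and the microRNA pairs lay on either side of them. It rose 2.12-fold after miR-193b (1.08 ± 0.13, adjusted p = 0.0243) and fell 4.23-fold after miR-365a (-2.08 ± 0.13, adjusted p = 0.00244), a difference of -3.16 (adjusted p = 0.012). Its other probe gave 0.15 and 0.38, so the probes disagree. Spty2d1, encoding a histone chaperone, rose 2.15-fold and fell 2.25-fold; its other probe gave 0.75 and 0.82, again not in agreement. Defb14 rose by 1.94 ± 0.34 and had -1.76 ± 0.34 after miR-365a (adjusted p = 0.0217), on NC levels that differed by 6.36 between the sets.

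Dnmt3b encodes a de novo DNA methyltransferase. Its levels were -0.05 and -0.08 on the NC arrays of the 0.2 set, 0.95 and 0.80 after miR-193b, 0.72 and 0.78 on the NC arrays of the 0.6 set and -0.24 and 0.16 after miR-365a. On the 0.6 set's NC arrays it was near its level after miR-193b in the 0.2 set, and the NC difference of 0.82 between the sets was called (adjusted p = 0.0229). It rose 1.92-fold (0.94 ± 0.16, adjusted p = 0.0403) and fell 1.73-fold (-0.79 ± 0.16, adjusted p = 0.0229); 2 further probes gave 0.52 and 0.65 after miR-193b and -0.67 each after miR-365a. The metallothionein gene Mt2, induced by metals and stress, rose 1.72-fold and fell 1.68-fold. Erlin2, a lipid raft protein gene of the endoplasmic reticulum, had 0.64 ± 0.10 and -0.71 ± 0.10, and Gpalpp1 0.84 ± 0.12 and -1.07 ± 0.12. The phospholipase gene Plb1 rose 2.44-fold and fell 1.61-fold, but with the mean over its probes its miR-193b difference was -0.14 (adjusted p = 0.914). Nkapd1 and Pih1d2, named after their values were seen, have probes 19.6 kb apart on chromosome 9 (mm9) and both rose and fell in the same comparisons (0.79 ± 0.12 and -0.62 ± 0.12 for Nkapd1, 0.99 ± 0.13 and -0.56 ± 0.13 for Pih1d2).

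The reverse pattern, lower after miR-193b and higher after miR-365a, was seen in 12 genes. Slc44a2, a choline transporter-like gene with a miR-193b seed match in its probe, stood at 1.74 and 1.69 on the NC arrays of the 0.2 set, 0.86 and 0.83 after miR-193b, 2.19 and 2.11 on the NC arrays of the 0.6 set and 3.17 and 3.01 after miR-365a. The miR-193b pair was below and the miR-365a pair above its NC pair, with -0.87 ± 0.11 (adjusted p = 0.0252) and 0.94 ± 0.11 (adjusted p = 0.00614). Timp2, the tissue inhibitor of metalloproteinases that also takes part in activating pro-MMP2, was at 4.12 and 4.16 on the NC arrays of the 0.2 set, 3.21 and 3.01 after miR-193b, 3.77 and 3.46 on the NC arrays of the 0.6 set and 4.23 and 4.21 after miR-365a. It fell 2.04-fold after miR-193b and rose 1.52-fold after miR-365a, and its other probe gave 0.32 and 0.49, which disagrees after miR-193b. Spint1 encodes HAI-1, an inhibitor of the epithelial serine proteases matriptase and hepsin; it fell 2.32-fold and rose 1.59-fold, and its other probe gave -1.22 and 0.45. Mitochondrial genes were the protease gene Oma1 (-0.74 ± 0.13 and 0.70 ± 0.13) and Dnajc30 (-0.91 ± 0.13 and 0.70 ± 0.13). Wdr48, an activator of deubiquitinases, Kctd5, an adaptor of cullin 3 ligases, and the zinc finger gene Zfp512b fell between 1.73-fold and 1.98-fold and rose between 1.48-fold and 1.52-fold. Of 9 probes of 8 genes moved oppositely that were not used for the class, 6 had the class's direction in both comparisons.

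**Figure D4:**
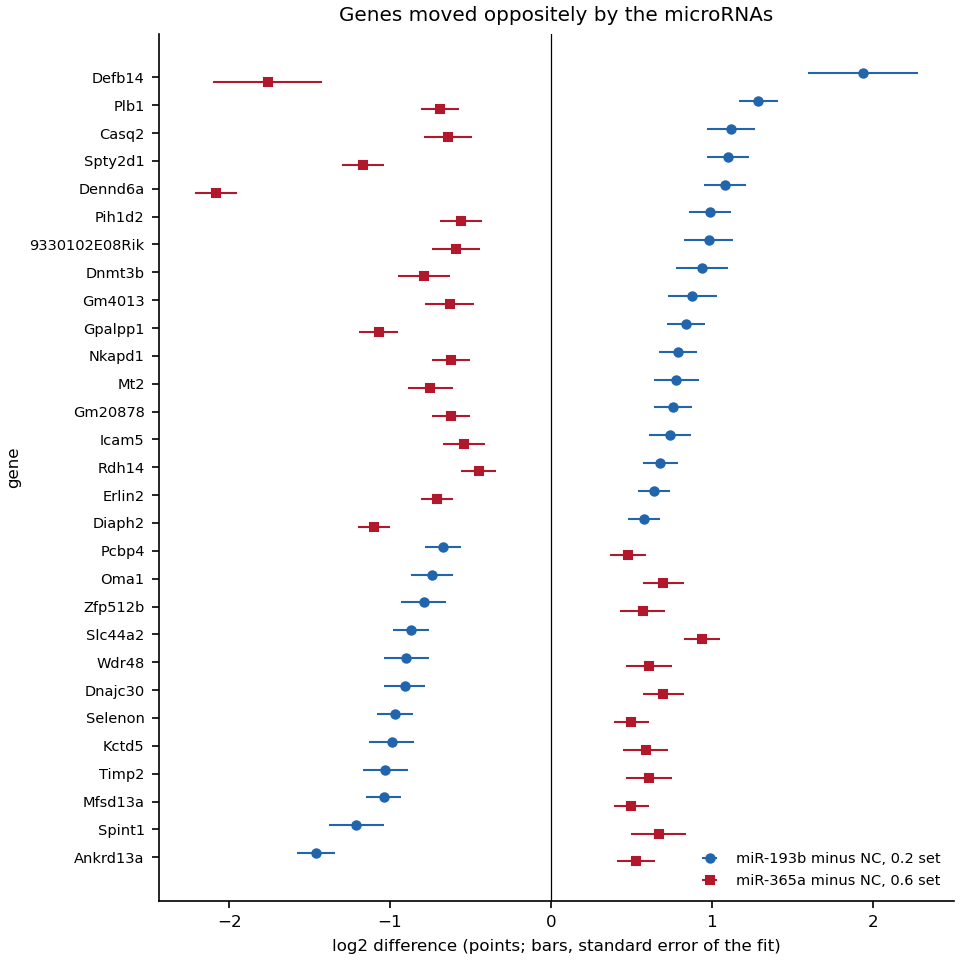
Log2 difference (horizontal; points, estimates; bars, standard error of the fit) of the 29 genes moved oppositely, after miR-193b (circles) and after miR-365a (squares). In 17 genes the miR-193b point lies above 0 and the miR-365a point below, and in 12 the reverse; Defb14 has the widest bars and Dennd6a the lowest miR-365a value, -2.08.

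Of the 80 members moved by miR-193b only, 46 fell, among them Stmn1, Axl, Rhoc and Kat2b. In this class the miR-365a effect was under 1.2-fold in 44 genes and of the opposite sign in 65. The class requires a called difference between the effects, which favours genes whose other effect is small or of opposite sign. These counts therefore follow largely from the definition. Stmn1, encoding the microtubule-destabilising protein stathmin, was at 4.63 and 4.68 on the NC arrays of the 0.2 set, 3.19 and 3.1 after miR-193b, 4.5 and 4.42 on the NC arrays of the 0.6 set and 4.35 and 4.45 after miR-365a. The miR-193b arrays lay apart from the other 6, and the difference between the effects was 1.45 ± 0.15 (adjusted p = 0.0148). Axl, a receptor tyrosine kinase gene, was at 3.90 and 4.00 on the NC arrays of the 0.2 set, 2.25 and 2.26 after miR-193b, 3.66 and 3.62 on the NC arrays of the 0.6 set and 3.38 and 3.35 after miR-365a. It fell 3.23-fold after miR-193b (adjusted p = 0.0116) and had -0.28 ± 0.10 after miR-365a (adjusted p = 0.126), with a called difference of 1.41. Rhoc, a GTPase gene of actin remodelling and motility, stood at 3.1 and 3.18 on the NC arrays of the 0.2 set, 1.43 and 1.36 after miR-193b, 3.49 and 4.06 on the NC arrays of the 0.6 set and 3.55 and 3.95 after miR-365a. It fell 3.36-fold, and its other probe gave -1.64 after miR-193b and 0.12 after miR-365a.

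Kat2b, encoding the histone acetyltransferase PCAF, fell 3.73-fold, and Med6, a subunit gene of the Mediator complex, fell 2.76-fold with its other probe at -1.23 and 0.29. After miR-365a the probe used for Med6 had 0.42 ± 0.11 (adjusted p = 0.0563). Apln, the gene of the vasoactive peptide apelin, fell 4.7-fold. Asah1, the lysosomal acid ceramidase gene, was at 1.53 and 1.10 on the NC arrays of the 0.2 set, -0.26 and -0.50 after miR-193b, 0.79 and 0.65 on the NC arrays of the 0.6 set and 0.83 and 0.49 after miR-365a. It fell 3.24-fold (adjusted p = 0.0229), against -0.06 ± 0.20 after miR-365a, and its other probe gave -1.10 and 0.13. Dcaf7, a WD repeat protein gene, Slc16a10, an aromatic amino acid transporter gene, Fkbp1b, which binds ryanodine receptors, and Pxylp1, a phosphatase gene of proteoglycan synthesis, fell between 2.5-fold and 2.86-fold. On slide 1 alone and across slides 2 and 3 the falls were -1.44 and -1.58 for Stmn1, -1.65 and -1.73 for Axl, -1.68 and -1.82 for Rhoc and -1.79 and -1.6 for Asah1, given as a description because the calls rest on the mean of these contrasts.

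Of the 80, 34 rose, among them the keratin gene Krt16 and the glutathione peroxidase gene Gpx2. Bnc2, the zinc finger gene basonuclin 2, was at -4.72 and -4.87 on the NC arrays of the 0.2 set, -2.54 and -2.23 after miR-193b, -2.94 and -2.90 on the NC arrays of the 0.6 set and -2.81 and -3.06 after miR-365a. The NC levels differed between the sets by 1.88 (adjusted p = 0.00331), and the 0.2 NC arrays were the lowest. It rose 5.33-fold (2.41 ± 0.16, adjusted p = 0.0116) against -0.02 ± 0.16 after miR-365a. Krt16, a keratin of hyperproliferative and wounded epidermis, stood at 4.57 and 4.16 on the NC arrays of the 0.2 set, 6.10 and 6.15 after miR-193b, 6.43 and 6.79 on the NC arrays of the 0.6 set and 6.14 and 6.38 after miR-365a. It rose 3.39-fold (adjusted p = 0.0204), and the 0.6 NC arrays were above the miR-193b arrays. Gpx2, expressed in epithelia, rose 2.63-fold and had -0.64 ± 0.23 after miR-365a (adjusted p = 0.117). Stra6, the receptor for retinol-binding protein, rose 3.34-fold, and Grhl1, a grainyhead factor of epidermal adhesion genes, 1.78-fold. Pla1a, a phosphatidylserine phospholipase gene, Mall, Tcp11l2 and Scgb2b20, a secretoglobin of a multigene family and so uncertain, rose between 2.22-fold and 2.96-fold. After miR-365a Mall had -0.61 ± 0.20 (adjusted p = 0.0876) and Tcp11l2 -0.60 ± 0.19 (adjusted p = 0.0788). For 14 genes of the class with other probes, 15 of 19 probes had the direction of the class.

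The 417 members moved by miR-365a only were the largest class, and 334 of them fell, 247 at least 2-fold and 30 at least 4-fold. The miR-193b effect was under 1.2-fold in 232 of the 417 and of the opposite sign in 299, counts that again follow largely from the definition of the class. Mest, an imprinted gene expressed from the paternal allele, was at 0.30 and -0.07 on the NC arrays of the 0.2 set, 0.19 and -0.60 after miR-193b, -1.70 and -1.16 on the NC arrays of the 0.6 set and -4.86 and -4.79 after miR-365a. Both miR-365a arrays were more than 3 log2 units below their NC arrays, a fall of 10.5-fold (-3.39 ± 0.31, adjusted p = 0.00346) against -0.32 ± 0.31 after miR-193b, and another probe gave -2.44 and -0.26. Procr, the endothelial protein C receptor gene, stood at 4.25 and 4.14 on the NC arrays of the 0.2 set, 4.31 and 3.75 after miR-193b, 4.29 and 4.84 on the NC arrays of the 0.6 set and 1.84 and 1.67 after miR-365a. It fell 7.02-fold (adjusted p = 0.00328), with a difference between the effects of -2.65 ± 0.35. Smim13, a small membrane protein gene, fell 6.93-fold and Ammecr1 6.41-fold, with all 4 arrays of the 0.2 set level for Smim13.

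Odc1, the rate-limiting enzyme gene of polyamine synthesis, fell 3.66-fold after miR-365a, and 3 further probes gave -1.81 to -2.63. Oaz2, encoding antizyme 2 which targets that enzyme, fell 5.5-fold by the probe used, but another probe gave -0.24 after miR-193b and 0.00 after miR-365a, so the probes disagree. Golm2, a Golgi membrane protein gene, Atp5mpl, an ATP synthase component gene, and Gpr132, a proton-sensing receptor gene, fell between 2.47-fold and 5.36-fold. Gpr132 had 1.55 ± 0.31 after miR-193b (adjusted p = 0.06).

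Ccnd1, encoding the G1 cyclin D1, was at 4.58 and 4.67 on the NC arrays of the 0.2 set, 3.91 and 4.20 after miR-193b, 4.5 and 4.89 on the NC arrays of the 0.6 set and 2.29 and 2.73 after miR-365a. It fell 4.55-fold after miR-365a (-2.19 ± 0.21, adjusted p = 0.00423); after miR-193b the difference was -0.57 ± 0.21 (adjusted p = 0.193), and the effects differed by -1.62 ± 0.30 (adjusted p = 0.0448). Its probe lies at chr7:152116261-152116202 on mm9. Nfib, a nuclear factor I gene reported earlier as a miR-365 target, stood at 2.85 and 2.72 on the NC arrays of the 0.2 set, 2.66 and 2.52 after miR-193b, 3.20 and 2.92 on the NC arrays of the 0.6 set and 1.15 and 1.13 after miR-365a. It fell 3.78-fold, and 3 further probes gave -0.95, -2.25 and -2.32. The hyaluronan receptor gene Cd44 fell 3.28-fold (-1.71 ± 0.23) and the tropomyosin gene Tpm4 3.0-fold. Falls were smaller on 3 further Cd44 probes, with -0.75, -0.53 and -1.02 after miR-365a. Smad3, a TGF-beta signal transducer, fell 2.66-fold, Itga6, the hemidesmosomal integrin alpha 6 gene, 1.74-fold, and the EGF receptor ligand gene Ereg 2.21-fold; a further Itga6 probe gave 0.65 and 0.18. Sc5d, a late enzyme of cholesterol synthesis, stood at 2.88 and 2.86 on the NC arrays of the 0.2 set, 3.05 and 3.01 after miR-193b, 2.90 and 2.80 on the NC arrays of the 0.6 set and 1.46 and 1.19 after miR-365a, and fell 2.87-fold.

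A smaller share of the class, 83 members, was higher after miR-365a only. Xkr8, a scramblase gene that exposes phosphatidylserine in apoptosis, was at -3.20 and -3.33 on the NC arrays of the 0.2 set, -3.59 and -3.63 after miR-193b, -3.74 and -3.55 on the NC arrays of the 0.6 set and -1.39 and -1.14 after miR-365a. The miR-365a arrays stood apart from all others, 5.19-fold above NC (2.37 ± 0.14, adjusted p = 0.0024) with a difference between the effects of 2.72 (adjusted p = 0.012). Trp53inp1, a p53-induced stress gene, was at 0.11 and 0.10 on the NC arrays of the 0.2 set, -0.44 and -0.22 after miR-193b, 0.23 and 0.59 on the NC arrays of the 0.6 set and 1.92 and 1.86 after miR-365a. It rose 2.79-fold, against -0.43 ± 0.16 after miR-193b (adjusted p = 0.184), and its other probe gave 0.2 after miR-193b and 1.24 after miR-365a. Norad, a long noncoding RNA that binds Pumilio proteins, rose 2.07-fold, and 3 further probes gave 0.82 to 1.26. After miR-193b it had -0.76 ± 0.16 (adjusted p = 0.0653), while the further probes gave 0.03, -0.4 and -0.35. Ctnnb1 (beta-catenin) and Cgn (cingulin of tight junctions) rose 1.78-fold and 1.81-fold, and the BMP-induced gene Id3 1.91-fold. Ifngr2, a chain of the interferon gamma receptor, rose 2.04-fold, but had -1.11 ± 0.25 after miR-193b (adjusted p = 0.0727). Casp6, an executioner caspase gene, rose 1.7-fold. Mgrn1, a ubiquitin ligase gene, Pcbd1, a pterin dehydratase gene, and Iqcb1, a ciliary gene, rose between 2.26-fold and 2.83-fold, and Mfap5 rose 5.8-fold. Iqcb1 had -1.25 ± 0.31 after miR-193b (adjusted p = 0.0875). Of 154 further probes of 116 genes moved by miR-365a only, 136 had the direction of the class.

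The 60-base probes themselves were searched for the letters that pair with each seed, GGCCAGT for miR-193b and GGGCATT for miR-365, on the strand of the transcript. A probe covers a small part of a transcript, so most sites lie outside it. GGCCAGT was in 47 of the 14564 probes (0.323%), in 4 of the 161 that fell after miR-193b (2.48%) and in 0 of the 237 that rose. The median miR-193b difference of all 47 was -0.03. GGGCATT was in 48 probes (0.330%), in 24 of the 1340 that fell after miR-365a (1.79%) and in 1 of the 1224 that rose (0.0817%). The median miR-365a difference of all 48 was -0.66. By class, GGGCATT was in 12 of the 334 genes lower after miR-365a only (3.59%), in 2 of 29 moved oppositely and in 0 of the 155 moved alike; GGCCAGT was in 2 of the 46 lower after miR-193b only, in 1 of 29 moved oppositely and in 1 of the 155 moved alike. Stretches of 30 bases from probes of genes in the classes are shown with the match in capitals, because they pair a sequence with a called fall after the microRNA of that seed; the first 3 match miR-193b and the last 4 miR-365.
Stmn1: atccaaagactgtactGGCCAGTgtccttt
Zfp365: gctgcagGGCCAGTcaaatgtatagatgtt
Slc44a2: tatgtaattgcattccGGCCAGTtaataaa
Suclg2: ctaggttcattcacaaGGGCATTtattcta
Vbp1: tcctttagtacttgaaGGGCATTatcatct
Pmm1: agaatggcagagaagGGGCATTacttaaag
Sc5d: cagaggcaccttactctctgGGGCATTatc
On mm9 the probes lie at chr4:134029355-134029414, chr10:67348967-67348908, chr9:21159407-21159466, chr6:95424771-95424712, chrX:72779699-72779758, chr15:81781601-81781542 and chr9:42062916-42062857, in that order, with the start above the end on the minus strand. After miR-193b and miR-365a the log2 differences were -1.22 ± 0.14 and 0.25 ± 0.14 for the zinc finger gene Zfp365. For Suclg2, a succinate-CoA ligase subunit gene, they were 0.05 ± 0.12 and -2.16 ± 0.12, for the prefoldin gene Vbp1 -0.23 ± 0.17 and -1.96 ± 0.17, and for the phosphomannomutase gene Pmm1 0.39 ± 0.11 and -1.88 ± 0.11. The 7 genes were chosen after their values were seen. A match is not evidence that the site is bound, and the annotation used here does not place the probes in exons or untranslated regions.

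Counts of calls in gene lists stand beside the shares over all members, 2.73% after miR-193b and 17.6% after miR-365a. Of 24 MAPK response genes, targets and feedback regulators of the RAS-RAF-ERK route, 1 fell and 0 rose after miR-193b, while 10 fell and 1 rose after miR-365a; the medians were -0.18 and -0.81. Etv5 moved alike and Ccnd1 and Ereg after miR-365a only. Upstream, of 23 RAS-MAPK pathway genes 0 were called after miR-193b (2 at an unadjusted p under 0.05 by limma) and 1 after miR-365a, with medians of 0.01 and 0.16. The 28 p53 targets had medians of 0.25 and 0.41, with 2 that rose after miR-193b and 8 that rose and 2 that fell after miR-365a; Bbc3 moved alike and Trp53inp1 after miR-365a only. The BCL2 and caspase list of 32 had medians of -0.02 and 0.2, with 1 rise after miR-193b and 6 rises and 7 falls after miR-365a. Among them Bbc3 moved alike. Bnip3l, a mitophagy receptor gene (-1.19 ± 0.17), Casp9 (-0.76 ± 0.12) and Casp6 (0.77 ± 0.13) moved after miR-365a only. Of 33 ribosome biogenesis genes 0 were called after miR-193b (4 at an unadjusted p under 0.05) and 7 fell after miR-365a, with medians of -0.08 and -0.30.

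**Figure D5:**
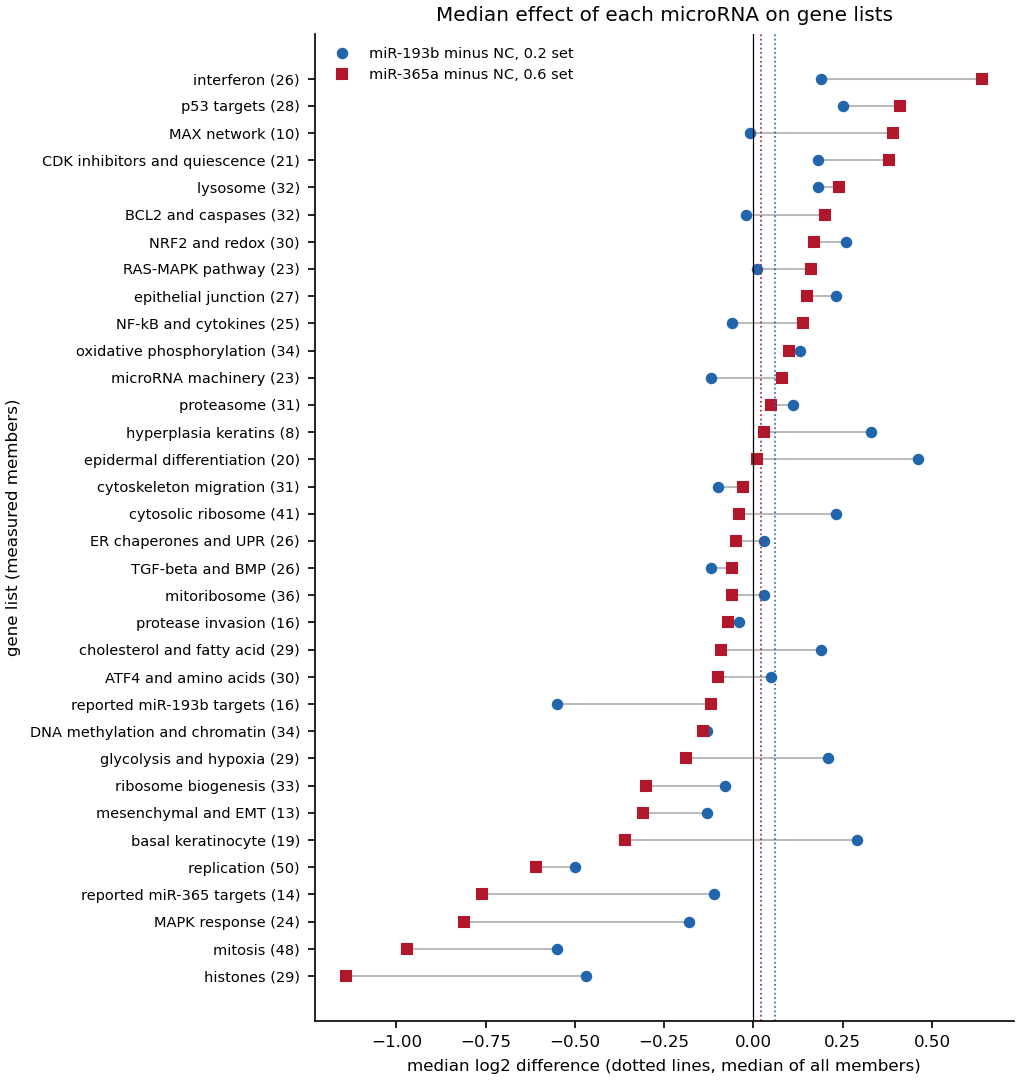
Median log2 difference (horizontal) of the measured members of 34 gene lists after miR-193b (circles) and after miR-365a (squares), with the number of measured members in brackets and the medians over all members as dotted lines. The histone, mitosis and replication lists lie below 0 for both microRNAs, and the basal keratinocyte, glycolysis and cytosolic ribosome lists have medians on either side of 0.

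Basal keratinocyte genes had medians of opposite sign, 0.29 after miR-193b and -0.36 after miR-365a over 19 genes. Of these 0 were called after miR-193b (5 at an unadjusted p under 0.05 by limma) and 3 fell after miR-365a, with Itga6 and Cd44 in the miR-365a only class. The 20 epidermal differentiation genes had medians of 0.46 and 0.01, with 3 that rose after miR-193b and 2 that rose after miR-365a. The 29 glycolysis and hypoxia genes had medians of 0.21 and -0.19; 1 rose after miR-193b, 6 fell after miR-365a, and Pfkfb3, a glycolytic regulator enzyme gene, fell after miR-365a only (-0.83 ± 0.16). Cytosolic ribosomal protein genes lay at 0.23 and -0.04 over 41 genes, with 0 called and 0 at an unadjusted p under 0.05 in either comparison. The median of all members moved to -0.001 after miR-193b when arrays were centred on the median, so the sign of a small median depends on the scaling.

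Interferon response genes were above 0 in both comparisons in 20 of 26, with medians of 0.19 and 0.64, beside 34.9% of all members above 0 in both, but 0 were called in either (2 and 4 at an unadjusted p under 0.05 by limma). Lysosomal genes were above 0 in both in 20 of 32, with 1 rise and 1 fall after miR-193b and 8 rises and 3 falls after miR-365a: Neu1 moved alike, Asah1 after miR-193b only and the membrane protein gene Lamp1 after miR-365a only (-0.76 ± 0.11). Of 30 NRF2 and redox genes 19 were above 0 in both, Gpx2 moved after miR-193b only and Srxn1, a sulfiredoxin gene, after miR-365a only (-0.96 ± 0.15). The 29 cholesterol and fatty acid genes had medians of 0.19 and -0.09, with 0 called after miR-193b (7 at an unadjusted p under 0.05) and 2 rises and 6 falls after miR-365a; Sc5d and Stard4, a sterol transfer gene (-0.84 ± 0.12), moved after miR-365a only. The mesenchymal list of 13 had medians of -0.13 and -0.31, with 1 rise and 1 fall after each microRNA. In it Axl moved after miR-193b only, and 1 member not named here moved after miR-365a only. Of the 31 cytoskeleton and migration genes Stmn1 and Rhoc moved after miR-193b only and Tpm4 after miR-365a only. The TGF-beta and BMP list of 26 held Smad3, Id3 and the ubiquitin ligase gene Smurf2 (0.55 ± 0.14) in the miR-365a only class and no gene moved alike.

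Genes reported earlier as targets had unlike medians after each microRNA. The 16 reported miR-193b targets measured had a median of -0.55 after miR-193b and -0.12 after miR-365a, with 3 that fell after miR-193b and 2 that rose and 4 that fell after miR-365a. The 14 reported miR-365 targets had medians of -0.11 and -0.76, with 1 that fell after miR-193b and 8 that fell after miR-365a. The lists overlap, and both hold Ccnd1 and Max, and Max was proposed from work on these cells, so the lists are not independent evidence of direction. Max, the partner of both MYC and the MXD proteins, was at 2.04 and 2.31 on the NC arrays of the 0.2 set, 1.53 and 1.56 after miR-193b, 3.02 and 3.08 on the NC arrays of the 0.6 set and 3.42 and 3.33 after miR-365a. Neither effect was called, -0.62 ± 0.13 after miR-193b (adjusted p = 0.061) and 0.33 ± 0.13 after miR-365a (adjusted p = 0.142), while their difference of 0.95 ± 0.18 was (adjusted p = 0.0491), as in 18 members in all. NC levels of Max differed by 0.88 between the sets (adjusted p = 0.0115).

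With no test, the genes nearest the limits of the alike class were E2f8 (adjusted p = 0.0495 after miR-193b) and Sprr2e (0.0495 after miR-365a) inside, and Ikbip (0.0501 after miR-193b) and H60c (0.0501 after miR-365a) outside.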

How the data were processed

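Total RNA of 8 samples was measured on 8 arrays, 1 per sample. Spot values are intensity, per the file headers Agilent's background-subtracted processed signal (Feature Extraction 10.7.3.1), with no normalization across arrays. The log2 values that the authors deposited for the same arrays, with the submitters' processing notes naming limma, served as an alternative; the columns have medians of 7.04 to 7.05 and each matched its own array best (r 0.965 to 0.981), while the background correction is not given in the sources used here. Control and outlier-flagged spots were left out, log2 signals were centred on each array's 75th percentile, and each of 30139 names kept its brightest probe. Of 39429 probes, 27508 were named by accession, 3544 by symbol, 404 by synonym and 7973 as in the files; probe positions are on mm9 in the submitters' processing notes. Tested genes (17846) passed Agilent's background flag on both arrays of some combination of transfection and set. limma 3.58.1 (lmFit, eBayes, R 4.3.3) was fitted on all 8 arrays with terms for set, miR-193b and miR-365a, leaving 4 residual degrees of freedom plus a prior of 2.3. The comparisons share no NC array but share the estimate of the spread. P values were Benjamini-Hochberg adjusted over the genes tested. Tables and plots used pandas 2.3.3, matplotlib 3.10.9 and numpy 2.4.6 under Python 3.11.15, and the fit was tested on simulated data.

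A gene counted as moved by 1 microRNA only when it was called after that one, not after the other, and the difference between the effects was called. Named genes with current symbols were the 8 highest and 8 lowest moved alike by the smaller change, up to 8 each way moved oppositely, the 8 largest rises and falls per microRNA by the difference, up to 4 per list in these classes, and Max and Ccnd1; not all genes the rule selects are reported here. Members and lists were chosen with earlier results of these data known. The number of arrays limits the precision. Alternatives covered background correction, normalization, the deposited values, filters, variance model, probes per gene, slide as a block, thresholds and leaving out each array.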

Additional observations from a re-analysis of the deposited data

Results flagged for a closer look

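In 5 of the 104 named genes 1 of the 4 NC arrays lay far from the other 3 by Dixon's ratio (gap over range, against the 95% critical value for 4 samples), and chance flags about 1 in 20 such groups. Cd44, the hyaluronan receptor gene, had a ratio of 0.894, with 3.00 and 3.06 on NC 1 and 2, 2.98 on NC 3 and 3.72 on NC 4. Fbxo5, the EMI1 gene, had 0.865, with 1.71, 1.78 and 1.73 on NC 1, 2 and 3 and 1.26 on NC 4. Dcaf7, a WD repeat gene, had 0.864, with -0.44 on NC 2 and -0.11, -0.06 and -0.10 on the others. For Dnajc30, a mitochondrial gene, the ratio was 0.856, with 0.56 on NC 4 and 0.90, 0.85 and 0.88 on the others. Ropn1l had 0.851, with -1.25 on NC 4 and -1.01, -1.05 and -1.04 on NC 1, 2 and 3. The distant array was NC 4 in 4 of the 5 genes, and the cause was not tested.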

How the results depend on the processing

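Counts are given in the order called after miR-193b, called after miR-365a, difference called, moved alike, moved oppositely, miR-193b only and miR-365a only; as reported they were 398, 2564, 546, 155, 29, 80 and 417. At an adjusted p under 0.1 they were 1135, 3920, 1286, 490, 78, 212 and 927. Fitted over members alone they were 890, 3430, 1069, 363, 58, 173 and 783. With normexp background correction they were 864, 3187, 969, 341, 52, 158 and 712. The authors' deposited log2 values gave 781, 3223, 935, 316, 55, 148 and 671. Trended robust variance gave 905, 3319, 1033, 378, 57, 160 and 757. With the mean over a gene's probes they were 249, 2240, 374, 90, 16, 53 and 293. With no filter on dim probes they were 2, 873, 0, 0, 0, 0 and 0, where limma at an unadjusted p under 0.05 gave 2452, 4280, 2411, 999, 192, 468 and 1470. Slide as a fixed block gave 54, 1962, 60, 7, 5, 24 and 29, and as a random block (correlation 0.295) 450, 3365, 852, 180, 39, 109 and 657. Each set fitted alone gave 0 calls after miR-193b, 1962 after miR-365a, and 0 moved alike or oppositely (2475, 4985, 1040 and 201 at an unadjusted p under 0.05), with no test of the difference. Quantile normalization, median centring and an added 1.5-fold limit kept every count within 1.5 times. Leaving out 1 array gave 2 to 155 calls after miR-193b, 500 to 2556 after miR-365a, 0 to 436 differences, 0 to 44 alike, 0 to 13 opposite, 0 to 65 miR-193b only and 0 to 315 miR-365a only; the lone array left in a group is then assumed to vary like the others. At an unadjusted p under 0.05 the genes alike were 952 and 915 without miR-365a 1 or 2. Of 4219 values for named genes under these settings 2693 kept direction and call, 1520 lost the call, 5 gained one and 1 reversed: Plb1 after miR-193b, -0.14 with the mean over its probes. The causes were not tested. No paired analysis was possible because the labels give no replicate numbers that pair NC with microRNA samples; numbers here follow accession order.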

Other observations

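Counts of calls in the following lists stand beside 2.73% of all members called after miR-193b and 17.6% after miR-365a. Of 34 oxidative phosphorylation genes 0 were called after miR-193b (0 at an unadjusted p under 0.05 by limma) and 1 rose after miR-365a, with medians of 0.13 and 0.10. The 36 mitochondrial ribosomal protein genes had medians of 0.03 and -0.06, with 0 and 1 called (0 and 4 at an unadjusted p under 0.05), and the 31 proteasome genes medians of 0.11 and 0.05, with 0 and 1 called (4 and 2). Genes of the ATF4 and amino acid response, 30 in all, had medians of 0.05 and -0.10; 0 were called after miR-193b (5 at an unadjusted p under 0.05), and 2 rose and 4 fell after miR-365a.

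Hprt, a purine salvage gene often used as a reference in expression measurements and named after its values were seen, fell after miR-193b only. Its levels were 4.73 and 4.80 on the NC arrays of the 0.2 set, 3.75 and 3.42 after miR-193b, 4.79 on both NC arrays of the 0.6 set and 4.78 and 4.64 after miR-365a. The fall was 2.26-fold (-1.18 ± 0.14, adjusted p = 0.0237 by limma), against -0.08 ± 0.14 after miR-365a (adjusted p = 0.796).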
